A study of Homo sapiens with 16 samples.

Results

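The genes described here encode 10 structural proteins of the basement membrane: the laminin chains LAMA1, LAMA5, LAMB1, LAMB2 and LAMC1, the linking proteins HSPG2, AGRN and NID1, and the collagen IV chains COL4A1 and COL4A2. They were chosen by name as the main components of this sheet, though with earlier results of these data known. All 10 were among the 19772 genes tested, of 60675 identifiers counted in the 16 RNA-seq libraries. Every library came from H9, an established human embryonic stem cell line, carrying EGFP under the REX1 promoter and grown without feeders on Matrigel in mTeSR1. The tested groups received pooled siRNAs against SALL4 or VRTN, with harvest at 48 h, or against DSCC1 or SEPHS1, with harvest at 72 h (n = 3 libraries each). They were set against 4 control libraries, 2 with an siRNA against Renilla luciferase (Luciferase) and 2 with an siRNA called Control, for which the labels give no harvest time. Time after transfection and the targeted gene therefore cannot be told apart between the pairs of knockdowns. Nor can they be told apart between a knockdown and the controls, whose time may differ. The siRNA dose is given as 30 to 50 nM for all 16 libraries. The siRNA against VRTN came from another supplier than the enzymatically prepared pools used for the other targets and for luciferase. The targeted transcript fell in the SEPHS1 and VRTN libraries, to 14.9% of the control mean in each. SEPHS1 RNA was also lower in the SALL4 libraries, at 174.5, 196.7 and 248.6 CPM against 381.1 to 440.5 CPM in the controls (log2 fold change -0.99, adjusted p = 1.13e-05, edgeR). SALL4 RNA stood at 77.9% of the control mean in the SALL4 libraries (adjusted p = 0.0562) and DSCC1 RNA at 20.5% in the DSCC1 libraries (adjusted p = 0.486, at a control mean of 3.93 CPM), by the quasi-likelihood test of edgeR, Benjamini-Hochberg adjusted across all genes. The SALL4 difference passed with DESeq2 (-0.35, adjusted p = 0.00788) and limma-voom (-0.38, adjusted p = 0.00563). In edgeR it passed with a replicate block (-0.38, adjusted p = 0.0365) and without SALL4 replicate 3 (-0.42, adjusted p = 0.0218), but not in most alternatives. Library totals ran from 18597262 to 28662389 counts, and the members held 172 counts (LAMA1) or more in every library, against a floor of 3 counts. Levels below are counts scaled to library size by TMM (CPM), given as single values or as a mean ± SD. Each change is on the log2 scale, followed by its SE from that test. A gene is said to rise or fall only at an adjusted p under 0.05. The edgeR p values set each difference against a spread between replicates that was estimated over all 6 groups together.

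A basement membrane is a thin protein sheet on which epithelial cells rest. Laminins are trimers of an alpha, a beta and a gamma chain that polymerise at the cell surface through integrins and dystroglycan. Collagen IV forms a second, covalently linked network, and nidogen, perlecan and agrin bridge the networks and tie them to cells. Human pluripotent cells are epithelial and secrete laminins, and recombinant laminins holding the alpha5, beta1 and gamma1 chains support their culture. Matrigel, the coating used here, is itself an extract of a mouse tumour basement membrane, so the cells grew on a sheet already rich in these proteins, which RNA sequencing does not measure.

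Promoter sequences were read from RefSeq (GRCh38.p14), which held 8 of the 10 members; LAMA1 and AGRN were not among them. COL4A1 and COL4A2 lie head to head on chromosome 13 and are transcribed away from each other, and the 126 bases between their RefSeq starts, chr13:110307158-110307283, are printed on the plus strand because both chains share this interval. Capitals mark its CCAAT match and its GGGCGG match.
COL4A1 and COL4A2 interval: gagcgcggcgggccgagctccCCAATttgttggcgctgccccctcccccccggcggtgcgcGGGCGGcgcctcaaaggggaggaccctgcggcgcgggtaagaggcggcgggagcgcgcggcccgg
The 250 bases before the starts of LAMA5 (chr20:62367313-62367562, minus strand), HSPG2 (chr1:21937311-21937560, minus strand) and LAMB2 (chr3:49133051-49133300, minus strand) follow because these 3 transcripts fell in the SEPHS1 libraries. Capitals mark GGGCGG on either strand, which on the other strand reads CCGCCC.
LAMA5: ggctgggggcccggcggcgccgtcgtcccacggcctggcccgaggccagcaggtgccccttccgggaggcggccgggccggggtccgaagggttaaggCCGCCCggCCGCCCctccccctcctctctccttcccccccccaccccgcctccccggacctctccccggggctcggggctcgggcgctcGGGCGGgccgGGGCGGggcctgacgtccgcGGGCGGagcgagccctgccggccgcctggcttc
HSPG2: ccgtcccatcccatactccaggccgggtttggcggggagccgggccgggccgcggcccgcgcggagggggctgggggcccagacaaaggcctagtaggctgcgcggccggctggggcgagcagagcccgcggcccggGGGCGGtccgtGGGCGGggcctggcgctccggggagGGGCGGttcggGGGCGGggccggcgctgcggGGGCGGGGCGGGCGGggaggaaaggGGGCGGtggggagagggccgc
LAMB2: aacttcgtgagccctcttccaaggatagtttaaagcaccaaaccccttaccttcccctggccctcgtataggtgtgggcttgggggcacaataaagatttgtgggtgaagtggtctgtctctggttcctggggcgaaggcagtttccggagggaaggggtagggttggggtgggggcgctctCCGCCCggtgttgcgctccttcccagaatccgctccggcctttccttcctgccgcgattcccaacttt
GC made up 82.8% of the LAMA5 stretch, 82.8% of the HSPG2 stretch and 58.4% of the LAMB2 stretch, against a median of 58% over all promoters in the table. GGGCGG occurred 5 times before LAMA5, 8 times before HSPG2 and 1 time before LAMB2. All 8 members with a sequence held it at least once, as did 42.6% of 35116 promoters of the same length. CCAAT, on either strand, was found before NID1, COL4A1 and COL4A2, 3 of the 8, and in 32% of all promoters. TATAAA was in none of these 8 windows and in 10.7% of all promoters.

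Per kilobase of annotated exon, LAMA5 was the highest of the 10 in the control cells, at 26.3 ± 3.14 CPM per kb, and AGRN came next at 16.6 ± 1.75 (SD, n = 4 control libraries). LAMA5 encodes the alpha chain of the laminin that these cells are known to make, and AGRN the heparan sulfate proteoglycan agrin. NID1, LAMC1, LAMB2 and HSPG2 formed a middle group at 8.36 ± 2.28, 7.26 ± 0.254, 7.19 ± 0.537 and 5.87 ± 1.31 CPM per kb, and neighbours in this order did not differ beyond their spread. COL4A1 at 4.14 ± 0.336, COL4A2 at 3.07 ± 0.346, LAMB1 at 2.99 ± 0.52 and LAMA1 at 1.22 ± 0.179 CPM per kb were lowest, and of these COL4A2 and LAMB1 did not differ beyond their spread. Over the length of the longest annotated transcript instead of all exons, COL4A1 stood at 9.22 and COL4A2 at 9.12 CPM per kb, which put them in the middle group, while LAMA5 and AGRN kept the first places and LAMA1 the last. LAMA5 and AGRN were first and second and LAMA1 last, per kilobase of exon, in the SALL4, VRTN, DSCC1 and SEPHS1 libraries too.

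**Figure D1:**
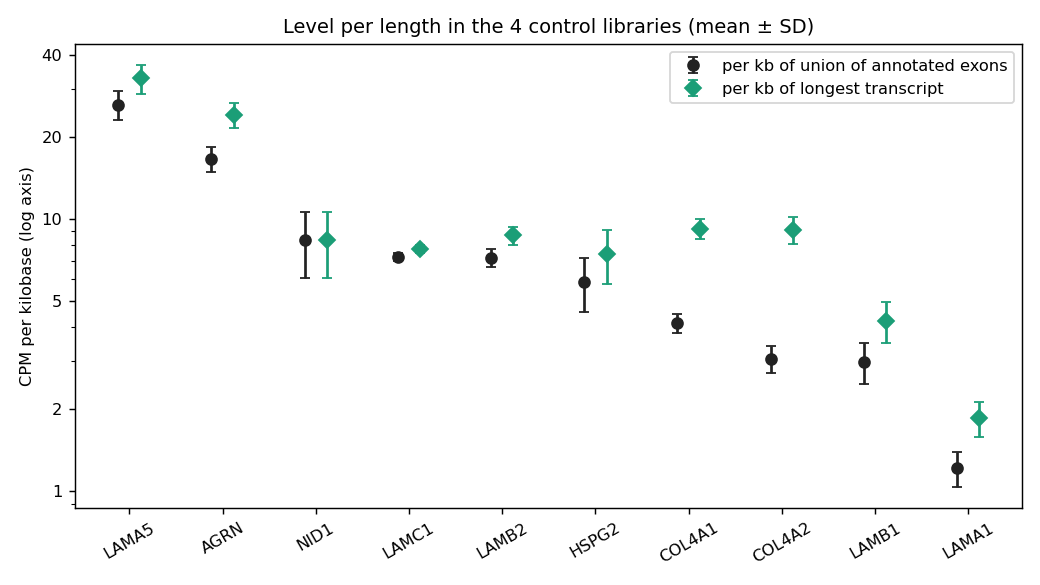
Level per kilobase of the 10 members in the 4 control libraries, in CPM per kb on a log axis, by annotated exon length (black circles) and by the longest transcript (green diamonds), as mean ± SD. LAMA5 (26.3) and AGRN (16.6) lead and LAMA1 (1.22) is lowest by exon length, and the collagen IV chains shift most between the lengths.

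Some other chains were nearly absent, while others stood near the lowest member. In CPM, not divided by length, LAMC3 averaged 17, COL4A6 16 and COL4A5 10.3 in the controls, against 19.3 for LAMA1. In the SALL4 libraries they averaged 18.8, 30.1 and 22.9 CPM, against 9.03 for LAMA1. Of 7 further laminin chains, LAMB4 had no count in any library, LAMA4 had none in 12 and LAMB3 none in 10 of the 16, and LAMC3, a gamma chain, reached 9.66 to 20.7 CPM. The 4 further collagen IV chains summed to 36 to 74.6 CPM in the SALL4 libraries, 22.5 to 33.1 in the VRTN libraries, 19.6 to 25.4 in the DSCC1 libraries and 17.7 to 29.1 in the SEPHS1 libraries, against 18.3 to 34 CPM in the controls.

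Against the controls, SEPHS1 siRNA lowered 4 of the 10 members (LAMA5, HSPG2, LAMB2 and AGRN) and raised none. Of all genes tested, 1.53% passed in this comparison, 0.931% lower and 0.602% higher. The median log2 fold change was -0.519 over the members and -0.02 over all genes, and 1 of the 10, NID1, had a positive value. With a correction for GC content and length, described below, these medians were -0.174 over the members and 0.043 over all genes, and 3 of the 10 were positive (NID1, COL4A1 and LAMC1). After SALL4 siRNA, 1 member rose (LAMC1) and 1 fell (LAMA1), where 2.98% of all genes passed, 1.85% higher and 1.13% lower. After VRTN siRNA, 1 member fell (AGRN) and none rose, where 1.13% of all genes passed, 0.683% lower and 0.445% higher. After DSCC1 siRNA, 0 of 10 members passed by edgeR's test, where 0.0455% of all genes did. In that comparison 2 of the 10 had an unadjusted p under 0.05, neither DESeq2 nor limma-voom called any, and the fold changes ran from -0.4 (LAMA1) to 0.12 (LAMC1). The median over the members was -0.073 after SALL4 siRNA, -0.133 after VRTN siRNA and -0.166 after DSCC1 siRNA, against 0.016, 0.021 and 0.002 over all genes. Between the control siRNAs, Control against Luciferase, 0 members and 0% of all genes passed by edgeR, DESeq2 or limma-voom, and no member had an unadjusted p under 0.05. The SEPHS1 libraries lay wholly below the 4 controls for 6 members (LAMA1, LAMA5, LAMB2, HSPG2, AGRN and COL4A2), a position that 7.76% of all genes shared. In the SALL4 libraries 1 member lay wholly above and 2 below the controls, with 6.82% and 6.83% of all genes so placed. In the VRTN libraries it was 1 above and 2 below, with 5.27% and 6.68% of all genes. In the SEPHS1 libraries none lay above, where 5.25% of all genes did. In the DSCC1 libraries no member lay above or below the controls, where 4.61% and 4.49% of all genes did. All 4 comparisons use the same control libraries.

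**Figure D2:**
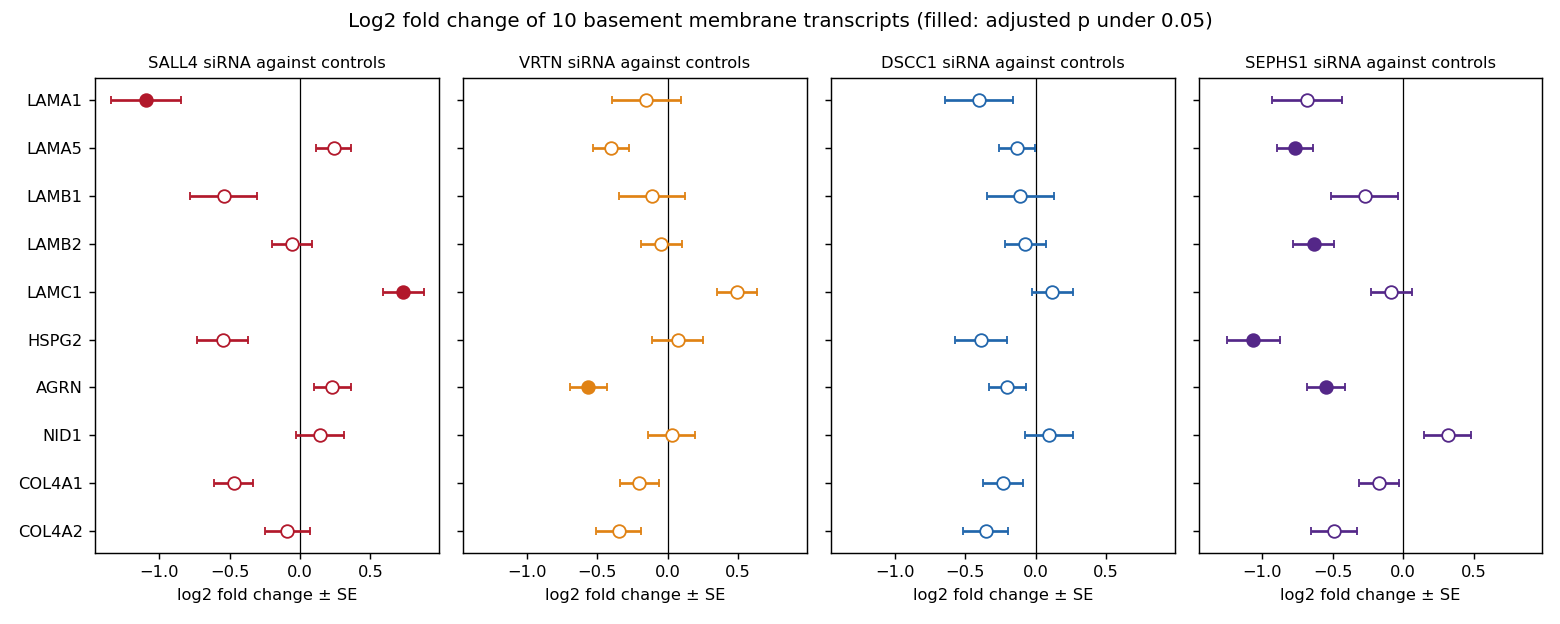
Log2 fold change ± SE of each member in the 4 knockdowns against the controls, with filled circles for an adjusted p under 0.05. The filled circles are LAMA1 (-1.09) and LAMC1 (0.73) for SALL4, AGRN (-0.56) for VRTN and LAMA5 (-0.77), LAMB2 (-0.63), HSPG2 (-1.06) and AGRN (-0.55) for SEPHS1, and none is filled for DSCC1.

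In several members replicate 1 of both control siRNAs lay on the same side of replicate 2. HSPG2 stood at 128.4 and 122.1 CPM in replicate 1 of Luciferase and Control and at 76.6 and 97.9 CPM in their replicate 2, while NID1 stood at 35.5 and 41.7 CPM in replicate 1 and at 52.8 and 66 CPM in replicate 2. Fold changes against either replicate alone are given below where they change a member's call. The 10 members also span a wide range of base composition, and fold changes over all genes moved with it. After SEPHS1 siRNA the median log2 fold change was 0.061 in the lowest of 5 classes of transcript GC (712 genes of at least 4 mean log2 CPM) and -0.101 in the highest class (1364 genes), after VRTN siRNA 0.064 and -0.103, after DSCC1 siRNA -0.029 and 0.038, and after SALL4 siRNA -0.065 and 0.067. AGRN with 67.5% GC, LAMA5 with 66.4%, HSPG2 with 64.5% and COL4A2 with 62% stood at percentiles 91 to 98.8 of tested genes, whereas LAMC1 with 48.7% and LAMB1 with 49.5% stood at 48.7 and 51.4. Values corrected for GC content and length, an analysis added after the data were seen, are given below beside the members' calls and wherever they end the call of another gene named.

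Of the laminin alpha chains, LAMA5 (ENSG00000130702, chr20:62307955-62367312, minus strand, GRCh38) stood at 209.3, 221.2 and 230.3 CPM in the SEPHS1 libraries, against 442.5 and 352.2 in Luciferase and 357.8 and 348.8 in Control. The 3 SEPHS1 libraries lay close together and well below every control. LAMA5 fell by 0.77 on the log2 scale (SE 0.13, adjusted p = 0.000605, edgeR), to 58.7% of the control mean. With the GC and length correction the fall was -0.41 (adjusted p = 0.0232), and the call was kept in all 20 alternative settings. In the VRTN libraries LAMA5 stood at 270.3, 322.6 and 257.6 CPM, all below the controls (log2 fold change -0.4, SE 0.13, edgeR adjusted p = 0.152). That value passed without a filter (adjusted p = 0.0325) and without Luciferase replicate 2 (-0.48, adjusted p = 0.0258), and was -0.15 (adjusted p = 0.659) with the GC and length correction. In the SALL4 libraries it stood at 568.1, 420.2 and 337 CPM, a wide spread that covered the control range, and the difference passed without SALL4 replicate 3 (0.41, adjusted p = 0.0382). In the DSCC1 libraries it stood at 319.1, 362.5 and 345 CPM, within or just under the controls. LAMA5 shares 244 exonic bases with ADRM1 on the opposite strand, a gene with a median of 5898.5 counts, and the strand setting of the counting is not given in the sources used here, so reads from that overlap cannot be told apart.

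LAMA1 (ENSG00000101680, chr18:6941744-7117814, minus strand), the alpha chain of the laminin of the early embryo, stood at 9.01, 10.8 and 7.33 CPM in the SALL4 libraries, against 20.3 and 15.2 in Luciferase and 20.2 and 21.7 in Control. No SALL4 library reached the lowest control. LAMA1 fell by 1.09 on the log2 scale (SE 0.25, adjusted p = 0.00874, edgeR), to 46.7% of the control mean, and by the same amount with the GC and length correction (-1.09, adjusted p = 0.00546). This call did not hold against Luciferase alone (-0.97, adjusted p = 0.102) and without SALL4 replicate 1 (adjusted p = 0.0501). In the SEPHS1 libraries LAMA1 stood at 9.64, 11.7 and 14.7 CPM, also below every control (log2 fold change -0.68, SE 0.25, edgeR adjusted p = 0.195). The VRTN libraries stood at 20.3, 20.2 and 11.6 CPM, of which 1 lay under the controls, and the DSCC1 libraries at 18.5, 12.4 and 13 CPM, of which 2 did.

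The alpha chain counts were therefore also set against each other within each library, a ratio that library scaling does not touch. LAMA1 counts were 1.59, 2.56 and 2.17% of LAMA5 counts in the SALL4 libraries, against 4.59 and 4.31% in Luciferase and 5.65 and 6.21% in Control. Every SALL4 library lay below every control, and the ratio was 0.403 of that in the controls (exact two-sided permutation test, p = 0.0286, n = 3 and 4, adjusted p = 0.171 over 12 ratio tests). That p is the smallest that 35 arrangements allow, so no ratio could pass after adjustment unless several reached it. In the SEPHS1 libraries, where both chains had negative fold changes, the ratio was 4.61, 5.3 and 6.37%, inside the control range at its lower values and just above it at the highest.

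Of the beta chains, LAMB2 (ENSG00000172037, chr3:49121114-49133118, minus strand), a beta chain best known from kidney and neuromuscular basement membranes, stood at 30.1, 36 and 29.3 CPM in the SEPHS1 libraries, against 54.7 and 49.1 in Luciferase and 46.5 and 47.3 in Control. The groups did not overlap, and the SALL4, VRTN and DSCC1 libraries, at 40.2 to 52.1 CPM, lay near or within the controls. LAMB2 fell by 0.63 on the log2 scale after SEPHS1 siRNA (SE 0.15, adjusted p = 0.016, edgeR). The call was lost with the GC and length correction (-0.41, adjusted p = 0.143), against Control alone (-0.56, adjusted p = 0.168), with control replicate 2 alone (-0.6, adjusted p = 0.163) and with limma-voom (adjusted p = 0.0583). It was also lost without Luciferase replicate 1 (adjusted p = 0.0752), SEPHS1 replicate 1 (adjusted p = 0.0705) or SEPHS1 replicate 3 (adjusted p = 0.119).

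LAMB1 (ENSG00000091136, chr7:107923799-108003255, minus strand), the beta chain of most embryonic laminins, passed in none of the 4 knockdowns. It stood at 17.4, 23.2 and 9.42 CPM in the SALL4 libraries, 25.4, 24.1 and 18 in the VRTN libraries, 16.5, 26.8 and 24.5 in the DSCC1 libraries and 22.8, 19.9 and 17.7 in the SEPHS1 libraries, against 29.2 and 19.2 in Luciferase and 26 and 23.1 in Control. SALL4 replicate 3 was the lowest of the 16, and every group overlapped the controls. The SALL4 fold change was -0.54 (SE 0.24, adjusted p = 0.304, edgeR). Relative to LAMB2, LAMB1 was at 33.8, 46 and 23.4% in the SALL4 libraries and 75.9, 55.3 and 60.5% in the SEPHS1 libraries, against 53.4, 39.2, 55.9 and 48.8% in the controls. Each difference had an exact two-sided permutation p of 0.0857 (adjusted p = 0.206, n = 3 and 4).

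LAMC1 (ENSG00000135862, chr1:183023460-183145592, plus strand), the gamma chain shared by most laminins, stood at 101.6, 113.4 and 89.5 CPM in the SALL4 libraries, against 63.6 and 58.4 in Luciferase and 61.5 and 60.6 in Control. The controls were tightly grouped and every SALL4 library was far above them. LAMC1 rose by 0.73 on the log2 scale (SE 0.14, adjusted p = 0.00187, edgeR), to 166.3% of the control mean. The call held in all 20 alternative settings, with fold changes of 0.66 to 0.83, and was 0.73 (adjusted p = 0.00073) with the GC and length correction. The VRTN libraries, at 90.5, 91.4 and 75.6 CPM, also lay above every control (log2 fold change 0.49, SE 0.14, edgeR adjusted p = 0.0986). That value passed with DESeq2 (adjusted p = 0.0426), limma-voom (adjusted p = 0.0252), no filter on low counts (adjusted p = 0.0301) and a replicate block (0.58, adjusted p = 0.011). The 72 h groups were lower and overlapped the controls, at 73.8, 60.7 and 64.5 CPM in the DSCC1 libraries and 74.4, 53.6 and 44.6 CPM in the SEPHS1 libraries. SALL4 siRNA thus came with more LAMC1, less LAMA1 and no called change of LAMA5, LAMB1 or LAMB2 RNA.

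**Figure D3:**
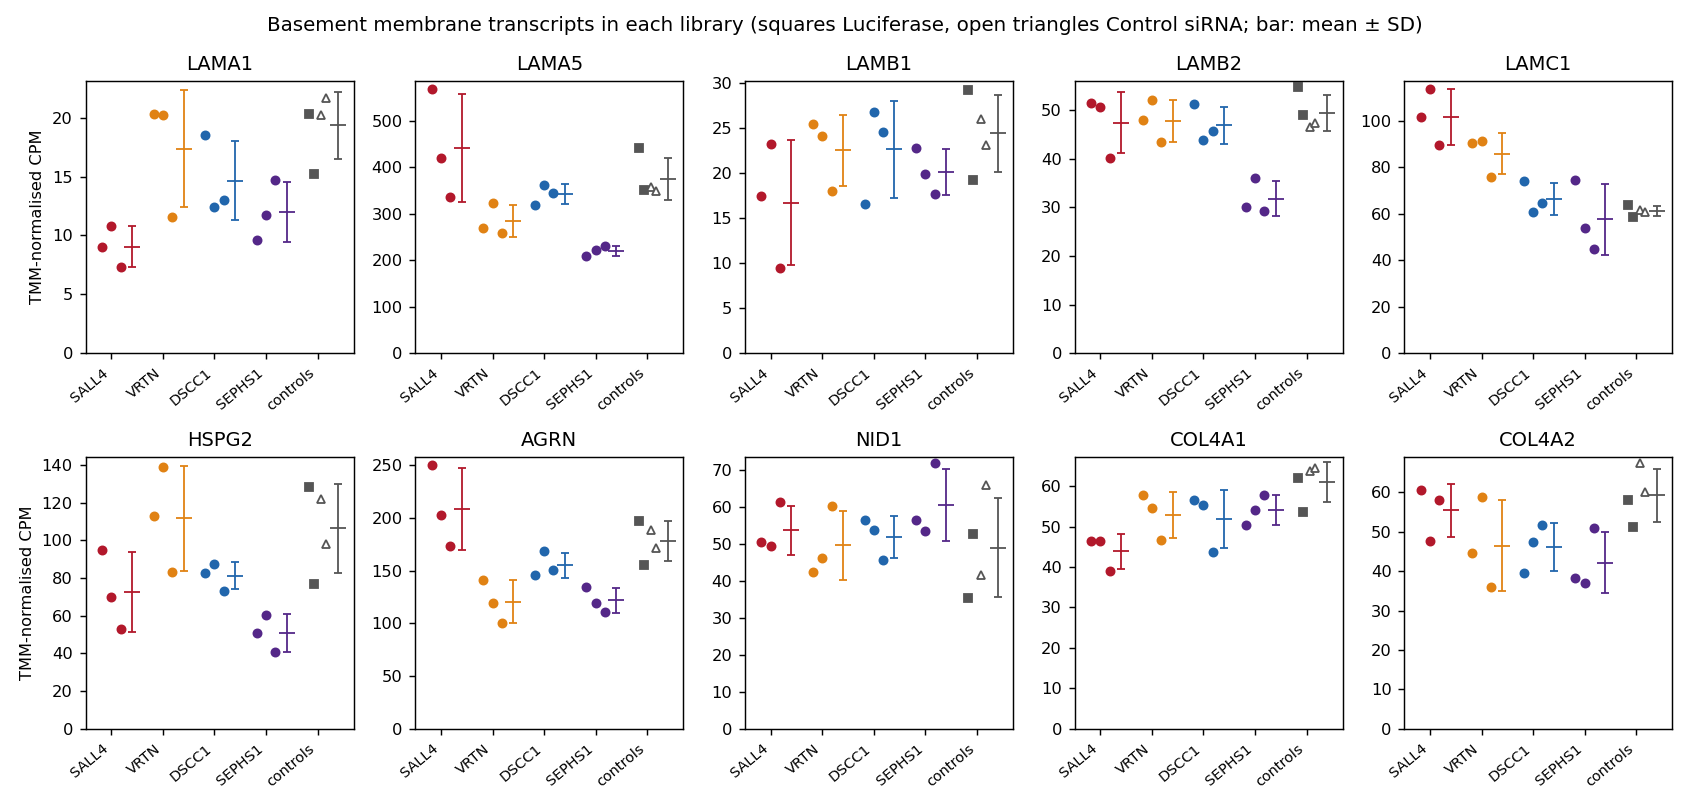
TMM-normalised CPM of the 10 members in each of the 16 libraries, with the 4 knockdowns left of the controls (squares Luciferase, open triangles Control) and mean ± SD beside each group. LAMC1 in the SALL4 libraries (89.5 to 113.4) lies above all controls (58.4 to 63.6), and LAMA5 in the SEPHS1 libraries (209.3 to 230.3) lies below all controls (348.8 to 442.5).

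Among the linking proteins, HSPG2 (ENSG00000142798, chr1:21822245-21937297, minus strand) encodes perlecan, a large heparan sulfate proteoglycan. It stood at 50.9, 60.6 and 40.7 CPM in the SEPHS1 libraries, against 128.4 and 76.6 in Luciferase and 122.1 and 97.9 in Control. Every SEPHS1 library was below the lowest control, although the controls themselves were spread widely. HSPG2 fell by 1.06 on the log2 scale (SE 0.19, adjusted p = 0.000996, edgeR), to 47.7% of the control mean, the largest fall of the 10 in this comparison. The call was kept in all 20 alternative settings, at -0.68 (adjusted p = 0.0228) with the GC and length correction and at -0.77 (adjusted p = 0.00807) against replicate 2 of the controls.

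In the SALL4 libraries HSPG2 stood at 94.8, 69.8 and 52.8 CPM, of which 2 lay below every control (log2 fold change -0.55, SE 0.18, edgeR adjusted p = 0.11). The value depended on the controls used, at -0.79 with replicate 1 of each siRNA (adjusted p = 0.00313) and -0.26 with replicate 2 (adjusted p = 0.703). It also passed with the GC and length correction (-0.63, adjusted p = 0.0212), without a filter (adjusted p = 0.00418) and without SALL4 replicate 1 (-0.79, adjusted p = 0.0274), Luciferase replicate 2 (-0.71, adjusted p = 0.00182) or Control replicate 2 (-0.63, adjusted p = 0.0247). The VRTN libraries, at 112.7, 138.8 and 83.3 CPM, and the DSCC1 libraries, at 82.5, 87.6 and 73.3 CPM, overlapped the controls. HSPG2 shares 2121 exonic bases with LDLRAD2 on the opposite strand, which had a median of 9 counts.

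AGRN (ENSG00000188157, chr1:1020123-1056118, plus strand) stood at 134.7, 119.3 and 111 CPM in the SEPHS1 libraries and at 141.1, 119.5 and 100.6 CPM in the VRTN libraries, against 197.2 and 155 in Luciferase and 189 and 171.3 in Control. Both knockdowns lay wholly below the controls. The fall was 0.55 on the log2 scale (SE 0.13, adjusted p = 0.0248, edgeR) after SEPHS1 siRNA, and AGRN fell by 0.56 (SE 0.13, adjusted p = 0.0223, edgeR) after VRTN siRNA. Neither call was firm, each being lost in 8 of 20 alternative settings. With the GC and length correction the values were -0.22 (adjusted p = 0.467) for SEPHS1 and -0.32 (adjusted p = 0.347) for VRTN. Against replicate 2 of the controls they were -0.42 (adjusted p = 0.292) for SEPHS1 and -0.44 (adjusted p = 0.199) for VRTN. Without Luciferase replicate 1 the adjusted p was 0.09 for SEPHS1 and 0.0599 for VRTN. The SEPHS1 call was also lost without SEPHS1 replicate 2 (adjusted p = 0.106) or 3 (adjusted p = 0.163), and the VRTN call without VRTN replicate 2 (adjusted p = 0.0996) or 3 (adjusted p = 0.2). In the SALL4 libraries AGRN stood at 250.5, 202.6 and 173.2 CPM and in the DSCC1 libraries at 145.7, 168.4 and 150.5 CPM, both overlapping the controls.

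NID1 (ENSG00000116962, chr1:235975830-236065162, minus strand), nidogen, which joins laminin to collagen IV, passed in no comparison. It stood at 56.7, 53.5 and 71.9 CPM in the SEPHS1 libraries, against 35.5, 52.8, 41.7 and 66 CPM in the 4 controls (log2 fold change 0.31, SE 0.17, edgeR adjusted p = 0.434). The controls covered nearly the whole range of the 16 libraries, and the SALL4, VRTN and DSCC1 libraries, at 42.5 to 61.4 CPM, lay within it.

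Of collagen IV, COL4A1 (ENSG00000187498, chr13:110148963-110307233, minus strand) and COL4A2 (ENSG00000134871, chr13:110305812-110513209, plus strand) encode the chains of the common collagen IV trimer, and neither passed in any of the 4 knockdowns. Their gene ranges overlap by 1422 bases in GENCODE 29 but share 0 exonic bases. COL4A1 stood at 46.4, 46.4 and 38.9 CPM in the SALL4 libraries, against 62 and 53.7 in Luciferase and 63.8 and 64.4 in Control. The groups did not overlap, and the difference was -0.47 on the log2 scale (SE 0.14, edgeR adjusted p = 0.0591), a value that passed with DESeq2 (adjusted p = 0.0197), limma-voom (adjusted p = 0.0397), the stricter filter (adjusted p = 0.0458) and the GC and length correction (adjusted p = 0.0424). COL4A2 in the same libraries stood at 60.5, 47.7 and 58.1 CPM, against 58.1 and 51.2 in Luciferase and 67.4 and 60.2 in Control, and overlapped them (-0.09). In the SEPHS1 libraries the order was the other way. COL4A2 stood at 38.3, 37 and 51 CPM, just under every control (log2 fold change -0.49, SE 0.16, edgeR adjusted p = 0.143), while COL4A1, at 50.4, 54.1 and 57.7 CPM, overlapped the controls (-0.17). With the GC and length correction the SEPHS1 values were -0.13 (adjusted p = 0.815) for COL4A2 and 0.11 (adjusted p = 0.827) for COL4A1.

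COL4A1 counts were 131.6, 146.2 and 113% of COL4A2 counts in the SEPHS1 libraries and 76.7, 97.1 and 67.1% in the SALL4 libraries, against 106.7 and 104.9% in Luciferase and 94.7 and 106.9% in Control. The controls agreed closely, every SEPHS1 library was above them, and 2 of 3 SALL4 libraries were below them. By the exact two-sided permutation test the SEPHS1 ratio was 1.26 of that in the controls (p = 0.0286, n = 3 and 4, adjusted p = 0.171) and the SALL4 ratio 0.769 (p = 0.0571, adjusted p = 0.206), so none of the 12 ratio tests passed after adjustment. Over the 16 libraries the pair did not follow each other closely. Other genes of at least 4 mean log2 CPM were ranked by the mean absolute difference of z-scored levels from COL4A1. LAMA1, at 3.819, lies below that level and was added as a member, which made 5526 genes. COL4A2 was number 1802 (1.003 SD units), whereas LAMA1 was number 3 (0.436).

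**Figure D4:**
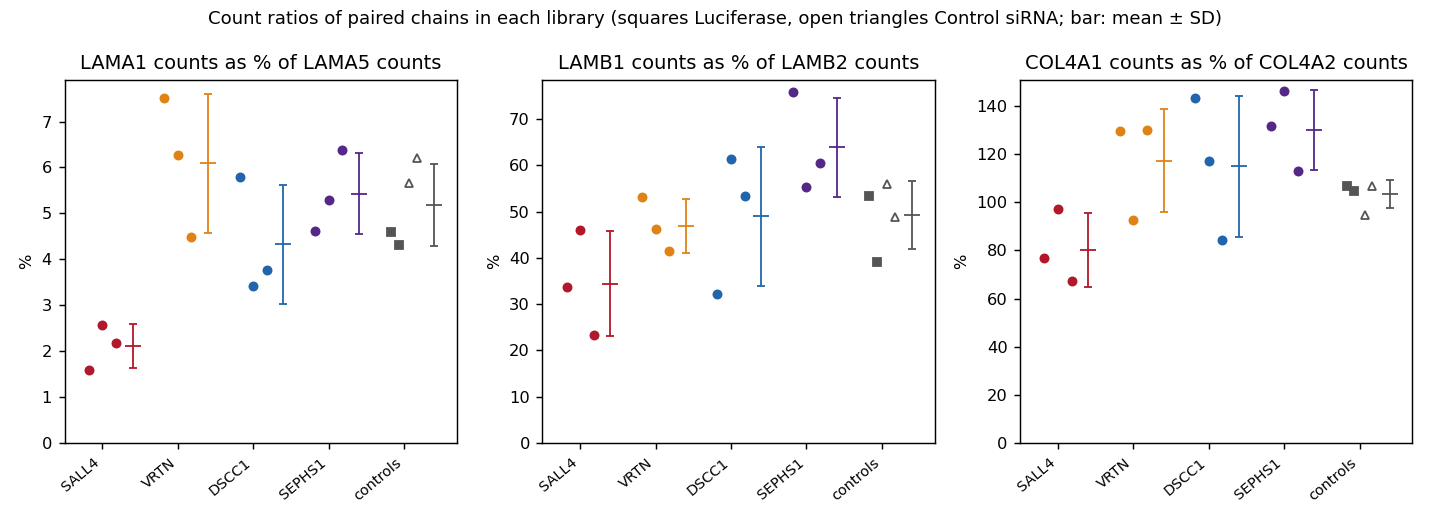
Counts of LAMA1 as a percentage of LAMA5, LAMB1 of LAMB2 and COL4A1 of COL4A2 in each library, knockdowns left of the controls (squares Luciferase, open triangles Control), with mean ± SD. LAMA1 to LAMA5 is lowest in the SALL4 libraries (1.59 to 2.56%), and COL4A1 to COL4A2 is above the controls (94.7 to 106.9%) in all SEPHS1 libraries (113 to 146.2%).

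Knockdowns harvested at the same time were compared directly. SALL4 against VRTN, both at 48 h, had AGRN (0.79, SE 0.14, adjusted p = 0.000617, edgeR) and LAMA5 (0.64, SE 0.14, adjusted p = 0.005, edgeR) higher and LAMA1 (-0.94, SE 0.26, adjusted p = 0.0466, edgeR) lower in the SALL4 libraries, 3 of 10 members where 2.44% of all genes passed, 1.73% higher and 0.703% lower. In AGRN the lowest SALL4 library, at 173.2 CPM, lay above the highest VRTN library, at 141.1 CPM. With the GC and length correction AGRN (0.43, adjusted p = 0.079) and LAMA5 (0.28, adjusted p = 0.196) no longer passed, while HSPG2 did (-0.94, adjusted p = 0.000829), against -0.62 (adjusted p = 0.0897, edgeR) without it. HSPG2 also passed there with no filter, with a replicate block and without SALL4 replicate 1 (-0.86, adjusted p = 0.0214) or VRTN replicate 3 (-0.79, adjusted p = 0.0284). The LAMA5 difference no longer passed without SALL4 replicate 1 (0.42, adjusted p = 0.127) and with only the groups compared (adjusted p = 0.115). The LAMA1 difference was -1.01 (adjusted p = 0.0228) with the GC and length correction. It no longer passed with only the groups compared (adjusted p = 0.168), nor without SALL4 replicate 1, 2 or 3 (adjusted p = 0.158, 0.071 and 0.122) or VRTN replicate 1 or 2 (adjusted p = 0.234 and 0.213). DSCC1 against SEPHS1, both at 72 h, had LAMA5 higher in the DSCC1 libraries (0.64, SE 0.14, adjusted p = 0.0263, edgeR), 1 of 10 members where 0.268% of all genes passed, 0.238% higher and 0.0303% lower. LAMA5 stood at 319.1 to 362.5 CPM in the DSCC1 libraries and at 209.3 to 230.3 CPM in the SEPHS1 libraries, without overlap. That call was lost when any 1 of the 6 libraries was left out (adjusted p from 0.0675 to 0.157), with the stricter filter (adjusted p = 0.0605), with limma-voom (adjusted p = 0.0891) and with the GC and length correction (0.34, adjusted p = 0.265). HSPG2 had 0.68 (SE 0.2, adjusted p = 0.162, edgeR) and LAMB2 0.56 (SE 0.15, adjusted p = 0.128, edgeR) in the same comparison.

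**Figure D5:**
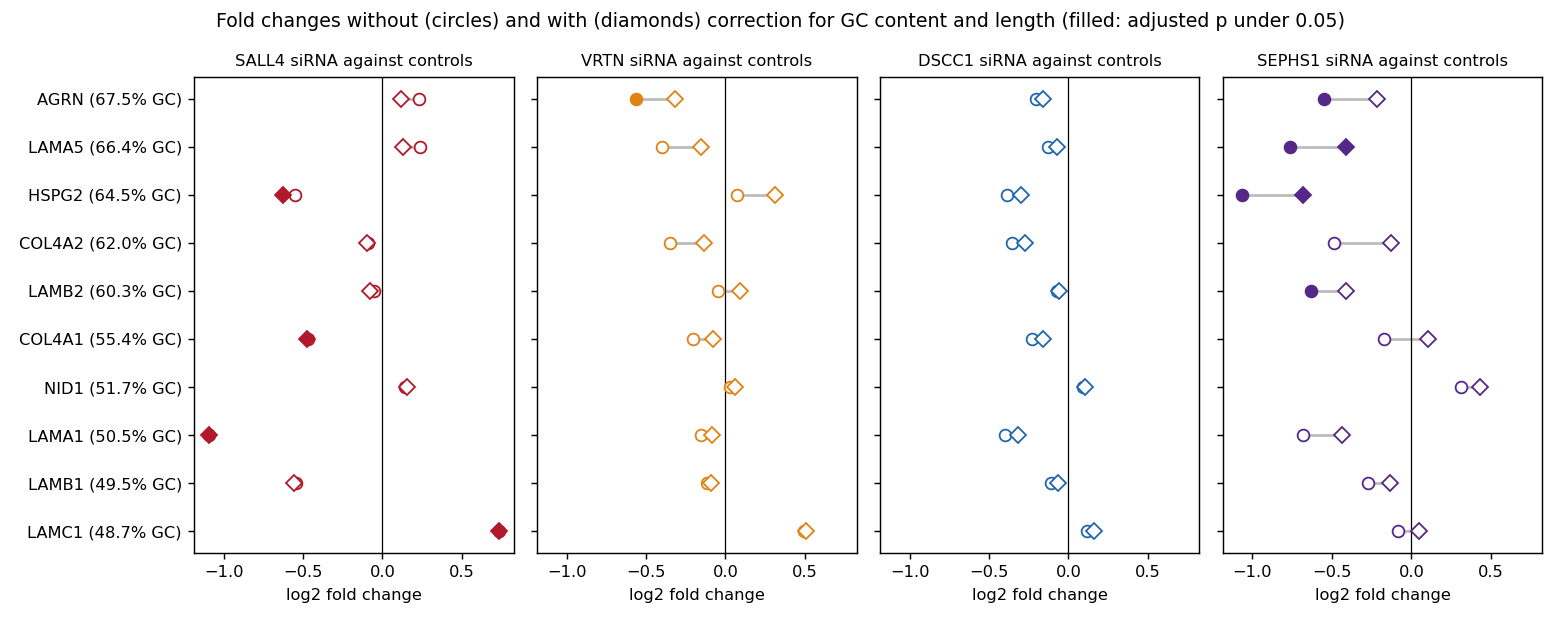
Log2 fold change of each member against the controls without (circles) and with (diamonds) correction for GC content and length, filled at an adjusted p under 0.05, with members ordered by transcript GC. In the SEPHS1 panel LAMA5 moves to -0.41 and HSPG2 to -0.68 and both stay filled, AGRN (-0.22) and LAMB2 (-0.41) become open, and in the SALL4 panel LAMC1 (0.73) and LAMA1 (-1.09) hardly move.

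Other genes of the pathway, 59 in 6 lists, were read beside the members. Of 57 tested, 5 were higher and 1 lower after SALL4 siRNA, 0 higher and 6 lower after VRTN siRNA, 0 of either after DSCC1 siRNA, and 0 higher and 6 lower after SEPHS1 siRNA, by edgeR at an adjusted p under 0.05. Over all genes, 1.85% were higher and 1.13% lower after SALL4 siRNA, 0.445% and 0.683% after VRTN, 0.0455% and 0% after DSCC1, and 0.602% and 0.931% after SEPHS1. The median log2 fold changes of the 57 were 0.1, -0.106, -0.165 and -0.262 in that order of knockdowns, against 0.016, 0.021, 0.002 and -0.02 over all genes. Among 16 tested further basement membrane proteins, 3 rose after SALL4 siRNA, where 1.85% of all genes did. FBLN1, the matrix protein fibulin-1, stood at 294.3, 284 and 193.1 CPM in the SALL4 libraries, against 149, 121.4, 173.4 and 135.1 CPM in the controls (0.83, SE 0.13, adjusted p = 0.000185, edgeR). COL18A1, the collagen XVIII proteoglycan from which endostatin is cut, stood at 279.5, 237.5 and 202.6 CPM against 156.2, 144, 162.9 and 138.8 CPM (0.67, SE 0.12, adjusted p = 0.000473, edgeR). Both SALL4 groups lay wholly above the controls and both calls held in every alternative run. FRAS1, of the Fraser complex that anchors epithelium, rose by 0.76 (SE 0.15, adjusted p = 0.00202, edgeR), a call that did not hold without SALL4 replicate 1 (0.59, adjusted p = 0.0524).

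COL4A5, a chain of the specialised collagen IV network, stood at 24.7, 22.2 and 21.8 CPM in the SALL4 libraries, against 11, 10.8, 12.1 and 7.31 CPM in the controls. It rose by 1.16 (SE 0.27, adjusted p = 0.011, edgeR), 1 of 4 further collagen IV chains tested, and this no longer passed without SALL4 replicate 1 (adjusted p = 0.0673) and against either control siRNA alone. COL4A6, its divergent neighbour, was 1.2 higher in SALL4 than in VRTN libraries (SE 0.32, adjusted p = 0.0355, edgeR), at 45.1, 32.9 and 12.3 CPM against 9.01, 17.2 and 13.2 CPM. That difference was lost without SALL4 replicate 1 (0.78, adjusted p = 0.429), SALL4 replicate 2 (adjusted p = 0.13), VRTN replicate 1 (adjusted p = 0.224) or VRTN replicate 3 (adjusted p = 0.0948). It was also lost with only the groups compared (adjusted p = 0.201), the stricter filter (adjusted p = 0.0567) and the GC and length correction (adjusted p = 0.0553). PLOD1, a lysyl hydroxylase of collagen, rose by 0.48 after SALL4 siRNA (adjusted p = 0.047, edgeR), a call lost in most alternatives. None of the 6 other laminin chains tested passed in any of these comparisons by edgeR.

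Of 11 receptors tested, 4 fell and none rose after VRTN siRNA, where 0.683% of all genes fell and 0.445% rose. Among them ITGA6, a laminin-binding integrin chain, fell by 0.82 (SE 0.18, adjusted p = 0.0159, edgeR). It stood at 20.6, 18.1 and 16 CPM in the VRTN libraries against 32.5, 35.9, 26.5 and 34.1 CPM in the controls. ITGA6 also fell after SALL4 siRNA, to 14.3, 18.6 and 23.2 CPM (-0.78, SE 0.18, adjusted p = 0.0109, edgeR), and both groups lay wholly below the controls. ITGA3, another laminin-binding integrin chain, fell by 0.72 (adjusted p = 0.0196, edgeR) and DDR1, a collagen receptor kinase, by 0.48 (adjusted p = 0.0152, edgeR) after VRTN siRNA. With the GC and length correction neither passed, at -0.55 (adjusted p = 0.0616) for ITGA3 and -0.32 (adjusted p = 0.132) for DDR1. All these receptor calls were lost without 1 or more single libraries, as ITGA6 without VRTN replicate 3 (adjusted p = 0.114) or SALL4 replicate 1 (adjusted p = 0.13). SPARC, a collagen-binding protein, fell by 0.51 after VRTN siRNA (adjusted p = 0.0101, edgeR) and by 0.38 without VRTN replicate 3 (adjusted p = 0.134). MMP15, named below for SEPHS1, fell after VRTN siRNA too (-0.69, adjusted p = 0.0414, edgeR). That call was lost with the GC and length correction (-0.51, adjusted p = 0.26) and without VRTN replicate 1 (adjusted p = 0.196) or 2 (adjusted p = 0.241). After SEPHS1 siRNA, where 0.931% of all genes fell, 2 of 11 receptors did, DDR1 (-0.48, adjusted p = 0.0137, edgeR) and the agrin receptor LRP4 (-1.48, adjusted p = 0.0434, edgeR). SERPINH1, the collagen chaperone (-0.45, adjusted p = 0.0149, edgeR), COL18A1 (-0.47, adjusted p = 0.0342, edgeR), FREM2 of the Fraser complex (-1.15, adjusted p = 0.0337, edgeR) and the membrane protease MMP15 (-0.69, adjusted p = 0.0394, edgeR) fell with them. With the GC and length correction none of these 6 SEPHS1 calls passed (adjusted p from 0.0848 to 0.524), and each was lost without 1 or more single libraries.

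The cells carried the transcripts of pluripotent cells in all groups. The 8 pluripotency markers summed to 2055.6 to 2306.6 CPM in the SALL4 libraries, 2443.2 to 2568.5 in the VRTN, 2296.1 to 2392.9 in the DSCC1 and 2423.4 to 2510.6 in the SEPHS1 libraries, against 1945.2 to 2238.4 in the controls. LIN28A made up the largest part, at a mean of 969.9 CPM in the controls. DPPA4 rose after VRTN siRNA (0.38, adjusted p = 0.0451, edgeR), a call lost in most alternatives, as with the GC and length correction (adjusted p = 0.0646). In SALL4 against VRTN, DPPA4 (-0.5, adjusted p = 0.00477, edgeR) and TDGF1 (-0.48, adjusted p = 0.0432, edgeR) were lower, and 3 of 7 tested were positive. Both were lost with only the groups compared, and TDGF1 with the correction (adjusted p = 0.0923). ZFP42, the gene from which the REX1 promoter of the reporter comes, is listed at 0 counts in all 16, and whether the counting could assign reads to it was not checked, so this is not read as its level. Endoderm markers, a lineage rich in laminin, summed to 3.52 to 9.29 CPM over 6 genes in the SALL4, 15.7 to 18.5 in the VRTN, 10.1 to 15.3 in the DSCC1 and 6.54 to 10.4 in the SEPHS1 libraries, against 5.77 to 11.3 in the controls, with SOX17 at 0 in 9 libraries. FOXA2, the largest part in the controls (mean 4.49 CPM), was lower in SALL4 than in VRTN libraries (-2.57, adjusted p = 0.00354, edgeR). That call was lost with only the groups compared (adjusted p = 0.0895), and 1 of the 6 had a positive value. The 6 trophoblast markers summed to 1.21 to 3.27 CPM in the SALL4, 2.03 to 4.65 in the VRTN, 2.87 to 6.14 in the DSCC1 and 2.22 to 6.95 in the SEPHS1 libraries, against 3.76 to 5.24 in the controls, with CGA and VGLL1 at 0 in all. In the controls most of the sum was KRT7, at a mean of 4.19 CPM, so the sum and KRT7 are not separate observations. GATA3 went the other way without a call, at 1.28 ± 0.98 CPM in the SALL4 libraries against 0.507 ± 0.082 in the controls. Every SALL4 library lay below the controls in this sum, and KRT7, an epithelial keratin, fell after SALL4 siRNA (-2.13, adjusted p = 0.0445, edgeR), a call lost against either control siRNA alone and when any 1 of 5 libraries was left out (2 SALL4, 1 Luciferase and 2 Control libraries). The 7 mesenchymal markers, nearly all COL1A1, summed to 531.7 to 1342.1 CPM in the SALL4, 532 to 880.1 in the VRTN, 1732.6 to 1962.9 in the DSCC1 and 1320.2 to 1550.5 in the SEPHS1 libraries, against 1578.5 to 1833.9 in the controls, with DCN at 0 in 13 libraries and TWIST1 in 12. COL1A1 fell after VRTN siRNA (-1.28, adjusted p = 4.64e-05, edgeR) and after SALL4 siRNA (-0.82, adjusted p = 0.00498, edgeR). The SALL4 call was lost against Control alone (adjusted p = 0.0678) and with only the groups compared (adjusted p = 0.0921). Of 5 mesenchymal markers tested, 2 had a positive value after VRTN siRNA and 4 after SALL4 siRNA. The 5 endothelial markers, mostly KDR, summed to 68.8 to 157.1 CPM in the SALL4, 37 to 59.3 in the VRTN, 51.1 to 57.7 in the DSCC1 and 54 to 78 in the SEPHS1 libraries, against 65.2 to 80.1 in the controls, with PECAM1 at 0 in 12 libraries. KDR rose after SALL4 siRNA (0.91, adjusted p = 0.00743, edgeR), although SALL4 replicate 3, at 56.7 CPM, lay within the controls. That call was lost against either control siRNA alone, with only the groups compared and without SALL4 replicate 1 or 2. Of the 5 markers, 2 had a positive value after SALL4 siRNA. The 5 neuroectoderm markers summed to 120.8 to 126.7 CPM in the SALL4, 129 to 137.6 in the VRTN, 147.9 to 151.8 in the DSCC1 and 98.6 to 140.8 in the SEPHS1 libraries, against 132.4 to 140.6 in the controls, and within them FEZF1 rose (2.56) and NES fell (-0.67) after SALL4 siRNA. The part of these shifts in the members' changes was not tested, and in bulk RNA fewer cells of a type and less RNA per cell cannot be told apart.

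The genes whose levels ran closest to a member over the 16 libraries were found by the mean absolute difference of z-scored log2 CPM, a description only, since the libraries share groups and base composition. LAMA5 ran closest to DOT1L (0.261), JUP (0.288) and ELOVL1 (0.3), LAMB2 to LUZP1 (0.255), HSPG2 to FAT1 (0.311), AGRN to LRP1 (0.318), LAMA1 to PODXL (0.345), LAMC1 to FNBP1 (0.371) and CDH2 (0.373) and COL4A1 to ANGEL1 (0.383). LAMB1, COL4A2 and NID1 had no gene nearer than RGS5 (0.424), TAB1 (0.444) and PRKCSH (0.454). Within the members, AGRN was number 8 of 5526 from LAMA5, while LAMC1 was number 4410 from LAMB1, its partner in most laminin trimers.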

How the data were processed

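RNA was sequenced as 80 bp single ends from polyadenylated RNA with a Lexogen SENSE kit, per the labels' protocols. The deposited table holds raw counts per Ensembl gene, made by the authors with STAR 2.4.0.1, HTSeq 0.9.1 and GRCh38, per the submitters' processing notes; strand setting and annotation release are not given in the sources used here. Positions and lengths are from GENCODE 29.

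Genes were filtered with filterByExpr (19772 kept of 60675) and tested with edgeR 4.0.16 in R 4.3.3 (TMM, quasi-likelihood test, 1 design of 6 groups, adjusted p under 0.05). Knockdowns were compared with the average of both control siRNAs. Chain ratios of counts were tested by exact two-sided permutation. Floors of 3 counts, 0.1047 to 0.1613 CPM, cover counting error only. Code was tested on simulated data.

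The members, the other lists and the tests were chosen with earlier results of these data known. Named are all members and the targets. From each other list, genes were drawn from the up to 3 called per direction with the smallest p. Not all of these are named, and markers and nearest genes are given in part. Alternatives were upper quartile scaling or DESeq2 size factors within edgeR, no filter, a filter of 50 counts in 3 libraries, a replicate block, DESeq2 1.42.0, limma-voom (limma 3.58.1), either control siRNA or control replicate alone, only the groups compared, leaving out each library and, added after the data were seen, a correction for GC content (known for 99.2% of tested genes) and length.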

Additional observations from a re-analysis of the deposited data

Results flagged for a closer look

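LAMA5 in Luciferase replicate 1 stood apart from the other control libraries, at 442.5 CPM against 352.2, 357.8 and 348.8 CPM. Its gap to the nearest of the others was 0.904 of the range of the 4 libraries, above Dixon's 95% critical value. Chance marks about 1 in 20 groups in this way, and 10 members were examined. The fall of LAMA5 after SEPHS1 siRNA kept its call without that library, while the falls of AGRN and LAMB2 did not.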

How the results depend on the processing

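Of 1230 alternative values for the members, 1161 stayed on the same side of the threshold, 25 newly passed, 44 no longer passed and 0 called values changed sign. Values that passed in neither setting are among the 1161 also where their sign changed. LAMC1 after SALL4 siRNA and LAMA5 and HSPG2 after SEPHS1 siRNA kept their calls in all 20 settings each. The cause of the shifts below was not tested.

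Members called after SALL4 siRNA numbered 2, against Luciferase alone 1 and with the GC and length correction 4. After VRTN siRNA the number was 1, with no filter 3, with DESeq2 or limma-voom 2, and 0 against Luciferase alone, Control alone or replicate 2 of the controls, with only the groups compared and with the GC and length correction. After SEPHS1 siRNA it was 4, and 2 with limma-voom, against Control alone, against replicate 2 of the controls and with the GC and length correction. SALL4 against VRTN gave 3, and 1 with only the groups compared. DSCC1 against SEPHS1 gave 1, with no filter or DESeq2 2, and 0 with the stricter filter, limma-voom or the GC and length correction.

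Over all genes, SALL4 siRNA gave 590 calls, with limma-voom 1291, against Luciferase alone 236, against Control alone 280, against replicate 1 of the controls 342 and with only the groups compared 349. VRTN siRNA gave 223, with no filter 397, with DESeq2 392, with limma-voom 348, against Luciferase alone 89 and against Control alone 95. DSCC1 siRNA gave 9, with no filter 99, with the stricter filter 2, with DESeq2 52, with limma-voom 41, against Luciferase or Control alone 2, against replicate 1 of the controls 109, against replicate 2 of them 4, with only the groups compared 37 and with the GC and length correction 5. SEPHS1 siRNA gave 303, with no filter 516, with DESeq2 533, with limma-voom 158, against Luciferase alone 128, against Control alone 103, against replicate 2 of the controls 137 and with only the groups compared 198. SALL4 against VRTN gave 482, with no filter 726, with limma-voom 897 and with only the groups compared 193. DSCC1 against SEPHS1 gave 53, with no filter 151, with DESeq2 188, with limma-voom 24 and with the GC and length correction 27.

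Leaving out 1 library at a time gave 2 to 3 members called for SALL4, 0 to 2 for VRTN, 0 for DSCC1, 2 to 4 for SEPHS1, 2 to 4 for SALL4 against VRTN and 0 for DSCC1 against SEPHS1, and over all genes 275 to 924, 135 to 271, 2 to 98, 135 to 472, 248 to 879 and 22 to 71 in that order, with 0 to 1 for Control against Luciferase. The log2 ratio of LAMA1 to LAMA5 then differed from the controls by -1.466 to -1.122 for SALL4, 0.047 to 0.419 for VRTN, -0.521 to -0.138 for DSCC1 and -0.054 to 0.179 for SEPHS1, that of LAMB1 to LAMB2 by -0.796 to -0.31, -0.172 to 0.02, -0.236 to 0.228 and 0.243 to 0.471, and that of COL4A1 to COL4A2 by -0.525 to -0.258, 0.086 to 0.329, -0.054 to 0.328 and 0.241 to 0.427. Where 1 control library was left of a pair, it was assumed to vary like the other groups.

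With the replicate number as a block, members called were 2 for SALL4, 2 for VRTN, 0 for DSCC1, 4 for SEPHS1, 4 for SALL4 against VRTN and 2 for DSCC1 against SEPHS1, and over all genes 820, 283, 15, 270, 686 and 147. The numbers share no stated source. Of 36 same-numbered pairs, 9 had deviations that correlated above 0.1, with a median of 0.0225 and a range from -0.316 to 0.363. Some pairs of unlike number correlated as strongly, as Luciferase replicate 2 with SALL4 replicate 3 (0.423). In a group of 2 libraries the deviations mirror each other, so these pairs are not separate observations. What the correlated libraries share was not tested.

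By the longest transcript, control levels per kb were 1.86 for LAMA1, 32.8 for LAMA5, 4.23 for LAMB1, 8.7 for LAMB2, 7.74 for LAMC1, 7.42 for HSPG2, 24.1 for AGRN, 9.22 for COL4A1 and 9.12 for COL4A2. With 2 to 4 libraries a group, small fold changes are not resolved at these levels.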
